A study of Saccharomyces cerevisiae with 15 samples.

Results

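The genes of the yeast proteasome and of RPN4, the transcription factor that activates them, were followed in RNA-seq data from the budding yeast Saccharomyces cerevisiae. The set holds the 33 subunit genes named PRE1 to PRE10, PUP1 to PUP3, SCL1, RPT1 to RPT6, RPN1 to RPN3, RPN5 to RPN13 and SEM1, together with RPN4, which gives 34 genes of the 6692 measured. They were chosen by name and matched by open reading frame identifier, a rule that uses no measured value, although earlier results of these data were known when the set was drawn up. The study compared an intrabody against a histone mark with drugs that inhibit histone acetyltransferases (HATi), the enzymes that write such marks. All 15 cultures were of strain L40, a mating type a strain with the alleles hisΔ200, trp1-901 and ade2, a mutant leu2 allele and the reporters LYS2::(lexAop)4-HIS3 and URA3::(lexAop)8-lacZ, its genotype ending in Gal4. In the DMSO, Curcumin and CPTH2 groups the cells carried the pL220 plasmid with an HA tag and no intrabody, and received DMSO alone, 200 µM Curcumin or 400 µM CPTH2. In the scFv-58F and scFv-645 groups the plasmid encoded an HA-tagged single-chain antibody fragment that acts inside the cell, scFv-58F against histone H3 acetylated at lysine 9 and scFv-645, an unrelated control, against mouse neuroligin 2. Every culture was incubated for 1 h in SD-L medium with 0.4% DMSO, and each group had 3 biological replicates. The promoter that drives the intrabodies and the number of transformant clones are not given in the sources used here.

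The proteasome degrades proteins tagged with ubiquitin. A barrel-shaped core particle, made of rings of alpha and beta subunits, holds the proteolytic sites, and a regulatory particle, with a base of ATPases and a lid, recognises, deubiquitinates and unfolds the substrates. In yeast these genes share a promoter element, PACE, that is bound by Rpn4, and Rpn4 is itself an unstable protein that the proteasome degrades, so that RPN4 and the subunit genes form a feedback loop.

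The PACE element was searched as GGTGGCAAA on both strands, in a window from 250 bases before to 50 bases after the annotated start codon of each gene, in the R64 (sacCer3) genome. It was found in 27 of the 33 subunit windows (81.8%) and in 71 of 5978 windows of all genes (1.19%), and was not found in the RPN4 window. With the first base left free (NGTGGCAAA), 30 subunit windows held it (2.38% of all windows). The inner 7 bases GTGGCAA, which any match of the longer forms contains, were in 32 subunit windows, all but RPN13 (4.65% of all windows). The exact element lay 76 to 183 bases before the start codon, with a median of 120 for its first base, on the strand of the gene in 19 windows and on the opposite strand in 8. The stretches around the element are printed 5′ to 3′ on the strand of the gene for the members with the largest changes in one of the comparisons, with the element in capitals (TTTGCCACC is its reverse complement). The last stretch comes from the RPN4 window and carries in capitals a match to TTCNNGAA, a paired unit of the heat shock element.
PRE2 (chrXVI:732184-732213, plus strand): acagcaaaagGGTGGCAAAacgaagaatag
PRE3 (chrX:435035-435064, plus strand): aacggaatccGGTGGCAAAaaagggaaaag
PRE4 (chrVI:249958-249987, minus strand): tggtttagaaTTTGCCACCttaaatacgta
RPT4 (chrXV:813801-813830, minus strand): aatagtggaaTTTGCCACCgaagggaaagg
RPN1 (chrVIII:164837-164866, minus strand): tgtgttttacGGTGGCAAAaggcgagcacg
RPN2 (chrIX:220800-220829, minus strand): atttattttcGGTGGCAAAactggatacat
RPN4 (chrIV:416711-416740, minus strand): tttcaaaagttTTCTAGAAttttcaagcaa

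The RPN4 window held 1 match to TTCNNGAA, a form present in 12.8% of all windows, and 1 overlapping match to the reverse arrangement GAANNTTC, present in 11.8%. It held no match to TCCGNGGA, the pleiotropic drug response element (1.2% of all windows), nor to TTANTAA, the Yap1 site (17.9%). These are matches of letters in a window of 300 bases, and binding was not measured.

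Sequencing depth ranged from 9062694 to 18878167 reads counted on genes per library, and the members were well covered, with a lowest count of 422, for RPN13, and a highest of 81515, for RPN4. All 34 members were among the 6588 genes tested. Genes specific to mating type a were detected in all libraries, among them STE2 at 49.2 to 99.3 CPM and ASG7 at 5.8 to 18.5. These CPM were scaled to the reads counted on genes alone. The alpha pheromone genes were lower than STE2 (MF(ALPHA)1 at 0.10 to 28.1). The alpha-specific genes STE3 (8.1 to 17.4) and SAG1 (22.3 to 57.1) were above 0 as well, and SAG1 lay above ASG7. The 3 Curcumin libraries differed widely from each other, and values are therefore given for each of them. Reads were counted without regard to strand. Of the members, only RPT1 overlaps another annotated gene, YKL145W-A, by 93 bp on the same strand.

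In DMSO-treated cells all 33 subunit genes were expressed, at levels that differed between the roles. Levels between genes are given as CPM per kilobase of exon, after normalization of the library size. The median subunit was at 230.3 to 233.2 in the 3 DMSO libraries. The lowest subunit was RPN1, a scaffold of the base and the longest gene of the set (2982 bp), at 64.3 ± 1.5 (SD, n = 3), and the highest was SEM1, a small lid subunit and the shortest (270 bp), at 676 ± 65.6. The alpha ring genes had a median of 325 and the other beta genes of 312, whereas the base ATPase genes had a median of 164, and the ranges of these groups overlapped. Among the catalytic beta genes, PUP1 (133 ± 5.4) lay below PRE2 and PRE3 and below all 6 ATPase genes. RPN4 itself was expressed at 94.5 ± 6.4 CPM per kb, below all subunit genes except RPN1 and RPN2. The 33 subunit genes together took 0.697% to 0.708% of the reads of the DMSO libraries.

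RPN4 (chromosome IV, 415113 to 416708, minus strand) rose in both drug treatments and did not pass the test in either intrabody strain. In DMSO it was at 140.1, 160.4 and 152.0 normalized CPM. In Curcumin it was at 808, 1824 and 5829, that is 5.36, 12.1 and 38.6 times the DMSO mean. The Curcumin libraries thus lay all above the control libraries but spanned a wide range among themselves. The log2 fold change was 4.22 ± 0.76 (SE), and the adjusted p was 0.0042. Here and in the comparisons that follow, the adjusted p comes from the quasi-likelihood test of edgeR, adjusted by the Benjamini-Hochberg method over all tested genes. RPN4 ranked 43 of 6588 by log2 fold change and 1389 by adjusted p. By the mean CPM of a group it moved from rank 1060 of 6692 genes in DMSO to rank 16 in Curcumin, where replicate 3 weighed most in the mean. By the mean CPM per kb, RPN4 moved from rank 1763 to rank 83. In CPTH2 it was at 369, 573 and 391 CPM, with a log2 fold change of 1.56 ± 0.17 (adjusted p = 7.0e-05). It ranked 127 by log2 fold change and 462 by adjusted p, and again no library overlapped the controls. In scFv-58F it was at 156.9, 149.1 and 147.6 CPM, within the range of the controls (log2 fold change 0.00 ± 0.06, adjusted p = 0.99). In scFv-645 it was at 142.9, 161.2 and 181.5 CPM (0.10 ± 0.09, adjusted p = 0.47), and these libraries also overlapped the controls. RNA was extracted from whole cultures, so that a change in every cell cannot be told apart from a change in some of the cells.

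**Figure D1:**
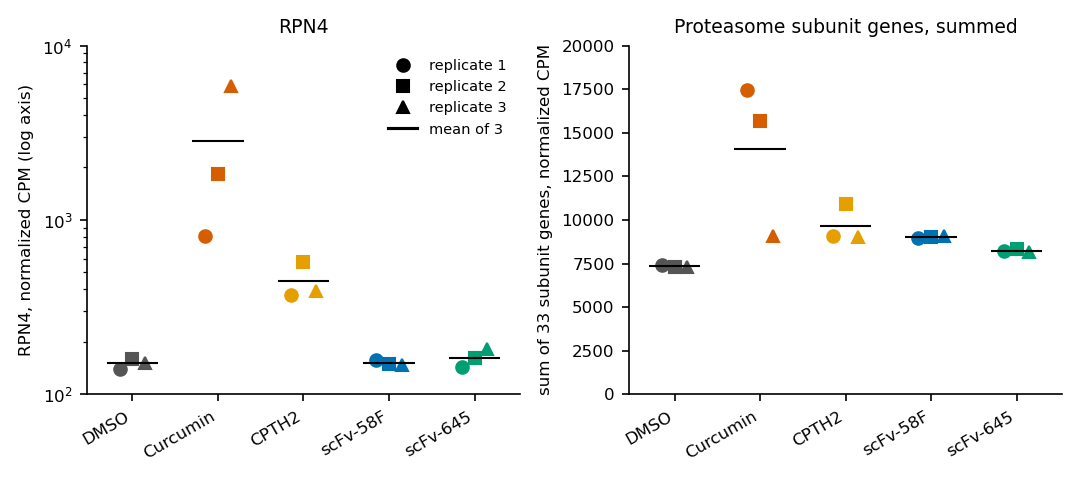
Normalized CPM of RPN4 (left, log axis) and the sum of normalized CPM over the 33 subunit genes (right, linear axis) in each of the 15 libraries, with symbols for the replicate number and bars for the mean of 3. RPN4 reaches 5829 CPM in the Curcumin library with the lowest subunit sum, 9053.

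The 4 comparisons with DMSO share the same 3 control libraries, and each is described by its own values. In Curcumin, 17 of the 33 subunit genes rose and none fell. A gene was called where its adjusted p was below 0.05 and its fold reached 1.5 in either direction, and by this rule 28.4% of all tested genes were higher and 24.1% lower. The median log2 fold change of the subunit genes was 0.83, against 0.04 over all tested genes, and 27 of the 33 had a positive sign. In 18 subunit genes all Curcumin libraries lay above all DMSO libraries, which was the case for 35.4% of all tested genes.

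RPN1, which holds the base together and docks shuttle proteins that carry ubiquitin, had the highest log2 fold change among the subunits. It was at 191.5, 196.4 and 187.2 CPM in DMSO and at 977, 1430.2 and 1466 in Curcumin (log2 fold change 2.75 ± 0.25, adjusted p = 0.00068). Its Curcumin libraries were close to each other, in contrast with those of RPN4. RPN2, the other large scaffold of the base, had a log2 fold change of 1.65 (adjusted p = 0.0034). Of the other non-ATPase genes of the base, RPN10 and RPN13, which code for ubiquitin receptors, neither passed the test. RPN13 was at 190.5, 109.2 and 30.2 CPM in Curcumin and at 192 to 205 CPM in DMSO, and its 3 Curcumin libraries lay below the controls (log2 fold change -0.85 ± 0.57, adjusted p = 0.24).

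Of the ATPases of the base, which unfold the substrate, 5 of 6 rose, with log2 fold changes from 0.75 for RPT1 to 1.51 for RPT2, and RPT6 had 0.98 with an adjusted p of 0.063. In the lid, 4 of 9 genes rose, namely RPN3 (1.36), RPN6 (1.497), RPN7 (1.25) and RPN11 (1.33), the last coding for the deubiquitinase that releases ubiquitin from the substrate. The lid genes RPN5, RPN8, RPN9, RPN12 and SEM1 did not pass the test, with log2 fold changes from -0.63 for SEM1 to 0.58 for RPN12.

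In the core particle 6 of 14 genes rose. Among the catalytic genes, PUP1, of the trypsin-like site, was at 106.1, 100.2 and 108.4 CPM in DMSO and at 246.6, 214.4 and 183.9 in Curcumin, and rose with a log2 fold change of 1.03 ± 0.18 (adjusted p = 0.0036). PRE2, of the chymotrypsin-like site, was at 202.5, 191.3 and 190.03 CPM in DMSO and at 464.9, 370.04 and 202.9 in Curcumin, where replicate 3 barely exceeded the controls (0.83 ± 0.31, adjusted p = 0.056). PRE3, of the caspase-like site, was at 179.7, 171.7 and 176.3 CPM in DMSO and at 275.2, 159.4 and 57.3 in Curcumin, so that its libraries lay on both sides of the controls (-0.10 ± 0.50, adjusted p = 0.88). Of the other beta genes PRE1 (1.31) and PRE4 (1.82) rose, the latter with all Curcumin libraries between 637 and 706 CPM. In the alpha ring PRE6 (1.13), PRE8 (1.26) and PRE10 (0.77) rose, whereas SCL1, PRE5, PRE9 and PUP2 were between -0.27 and 0.42 and did not pass the test.

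**Figure D2:**
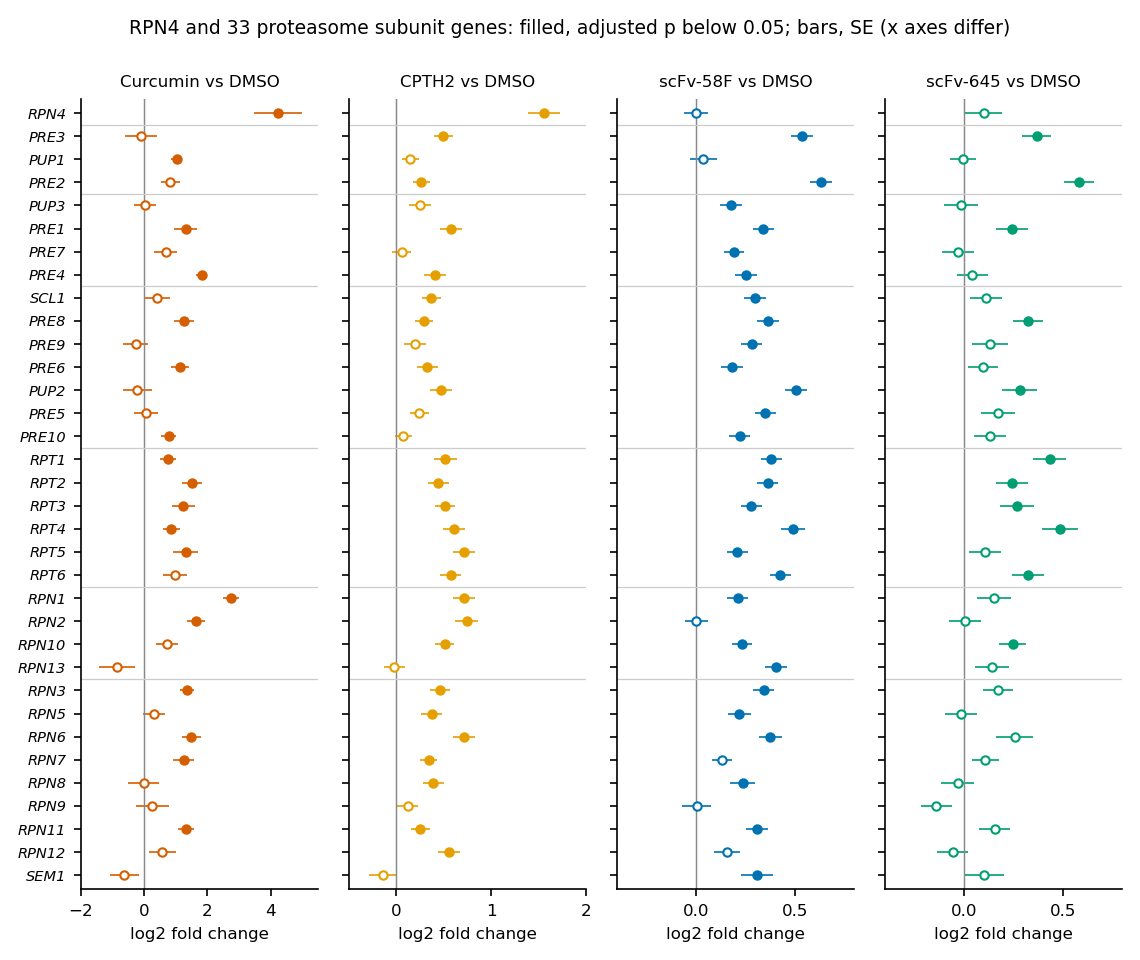
Log2 fold change against DMSO (x axis, with its own scale in each panel) of RPN4 and the 33 subunit genes (rows, grouped by role) in the 4 conditions; points are estimates from 3 against 3 libraries, bars the standard error, and filled points passed an adjusted p of 0.05. The intervals are widest in Curcumin, where 17 subunit genes passed, and narrow in scFv-58F, where 28 passed with smaller changes.

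The Curcumin libraries did not change in parallel. Replicate 1 had 31 of 33 subunit genes above all DMSO libraries, with a median log2 ratio to the DMSO mean of 1.20. Replicate 2 had 28, with a median of 0.93, and replicate 3 had 18 above and 15 below, with a median of 0.21 and single genes from -2.71 to 2.93. The subunit sum was 17473, 15646 and 9053 CPM, against 7295 to 7404 in DMSO. The library with the highest RPN4 level was therefore the library with the lowest subunit levels, in a group of 3. Without replicate 3, 25 subunit genes rose (29.4% of all tested genes were higher in that fit), and without replicate 1, 13 rose (31.3%) and SEM1 fell. Without replicate 2, 8 subunit genes rose (23.1%), as they did without DMSO replicate 1, 2 or 3 (at most 19.9%), so that in these 4 fits the 24.2% of the subunit genes lay near the share of all genes. The 8 genes called in each of these 6 fits were PUP1, PRE4, RPT2, RPN1, RPN2, RPN3, RPN6 and RPN11. RPN4 rose in all 6 fits, with a log2 fold change of 3.12 without replicate 3 and of 4.66 without replicate 1.

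**Figure D3:**
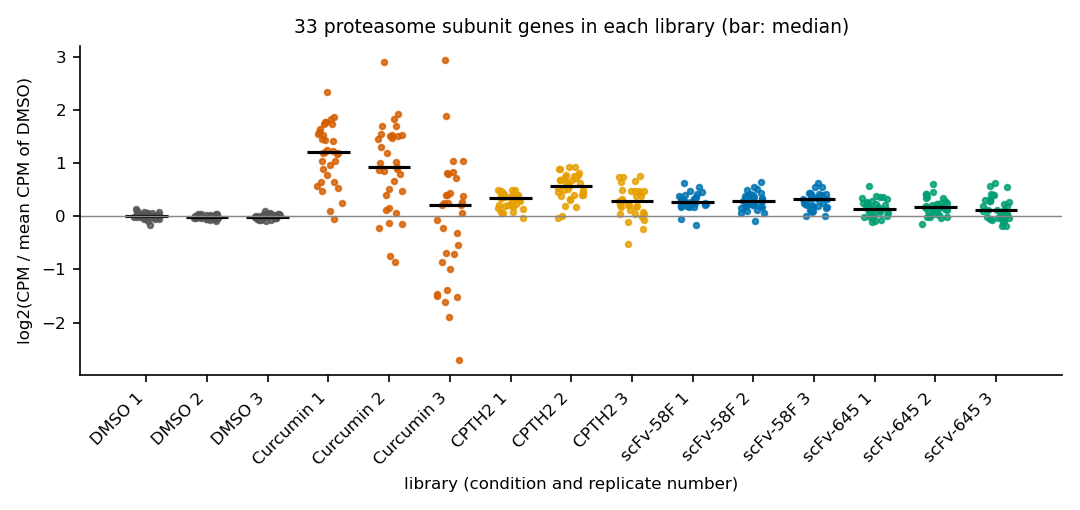
Log2 ratio of the normalized CPM to the mean of the 3 DMSO libraries (y axis) for the 33 subunit genes (points) in each of the 15 libraries (x axis), with the median as a bar. Curcumin replicate 3 has a median of 0.21 and points from -2.71 to 2.93, while the scFv-58F libraries have medians of 0.27 to 0.32.

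Gene length moved with these differences. The mean length of the gene on which a read was counted was 1049 to 1073 bp in the DMSO libraries and 1380, 1552 and 1638 bp in the Curcumin libraries, and 1150, 1236 and 1258 bp in CPTH2. Across the 33 subunit genes, which share the same libraries, the log2 fold change correlated with the log2 length with a Pearson's r of 0.69 in Curcumin and 0.69 in CPTH2, while over all 6588 tested genes r was 0.22 and 0.14. The shortest genes, SEM1 and RPN13 (471 bp), had the most negative changes in both drugs, and RPN1 and RPN2 (2838 bp) were among the genes with the largest increases. When the trend of all genes with length was removed, a choice made after seeing the data, 19 subunit genes rose in Curcumin (25.4% of all tested genes were higher), with a median log2 fold change of 1.14. RPN4 rose by 3.97 in that fit, and PRE4 (2.28) was then above RPN1 (2.19) among the subunits.

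**Figure D4:**
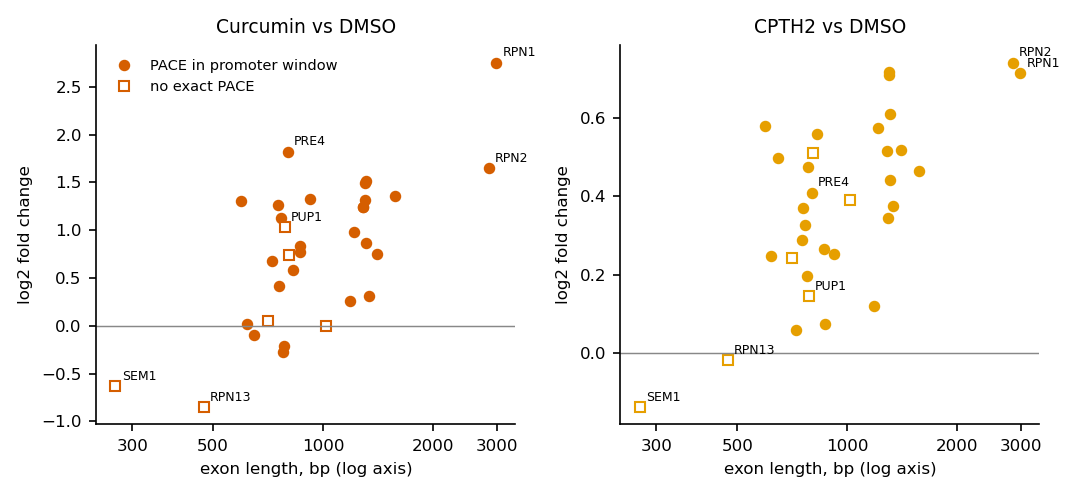
Log2 fold change against DMSO (y axis) and exon length (x axis, log scale) of the 33 subunit genes in Curcumin (left) and CPTH2 (right), with filled circles for the 27 genes with an exact PACE element in the promoter window and open squares for the 6 without. SEM1 (270 bp) and RPN13 (471 bp) lie lowest, and RPN1 (2982 bp) and RPN2 (2838 bp) at the upper right.

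In CPTH2 subunit genes rose as well, with a largest log2 fold change of 0.74. With the fold criterion 5 genes were called higher and none lower (14.1% of all tested genes were higher and 16.9% lower): RPT4, RPT5, RPN1, RPN2 and RPN6. These 5 of 33 are a share of 15.2%, near that of all genes, and all belong to the regulatory particle. With the length trend removed 11 subunit genes were called (14.7% of all tested genes were higher), among them the core genes PRE1 (0.77), PRE3 (0.69) and PUP2 (0.63). By the adjusted p alone 24 subunit genes were higher and none lower (30.9% and 33.1% of all tested genes). The median log2 fold change was 0.39, against -0.03 over all tested genes, and in 26 subunit genes the groups did not overlap (34.6% of all tested genes, higher in CPTH2).

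RPN2 had the highest log2 fold change of the subunits, a rank that it lost to PRE1 with the length trend removed, where RPN2 was at 0.64. It was at 260.6, 264.4 and 250.2 CPM in DMSO and at 363.5, 494.8 and 437.7 in CPTH2, with a log2 fold change of 0.74 ± 0.12 (adjusted p = 0.00064). RPN1 followed closely with RPN6 and RPT5, at log2 fold changes of 0.71, 0.72 and 0.71, and the distances between these genes are smaller than their standard errors of 0.11 to 0.12. All 6 ATPase genes passed the adjusted p, from 0.44 for RPT2 to 0.71 for RPT5, as did 7 of the 9 lid genes, all but RPN9 and SEM1.

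The 14 genes of the core particle had a median log2 fold change of 0.28 in CPTH2 and the 19 of the regulatory particle one of 0.51, a difference that was not tested. With the length trend removed the medians were 0.45 and 0.51. PRE3 was at 231.5, 282.6 and 230.5 CPM and rose (log2 fold change 0.50 ± 0.10, adjusted p = 0.0023). PRE2, at 224.9, 255.6 and 220.4 CPM, was higher by 0.26 ± 0.09 (adjusted p = 0.030), and PUP1, at 109.5, 130.6 and 107.8 CPM, did not pass the test (0.15 ± 0.09, adjusted p = 0.18). Replicate 2 was the highest CPTH2 library for RPN4 and for these 3 catalytic genes, and its subunit sum was 10939 CPM, against 9074 and 9023 in the other libraries. Without CPTH2 replicate 1, 11 subunit genes met both criteria (15.5% of all tested genes), and without replicate 3, 8 did (14.6%), whereas RPN1, RPN2, RPN6 and RPT5 were called in all 6 fits that left out a library. In a model of all 5 groups, which share a spread that includes the Curcumin libraries, 7 passed the adjusted p alone, and in a model of 4 groups without Curcumin 26 did. By both criteria, a stricter rule, 829 and 932 of all tested genes were higher in these models, against 928 in the main fit. The share higher by the adjusted p alone, 30.9% in the main fit, is not given for these models.

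The drugs were also compared directly. Their doses differed, 200 µM for Curcumin and 400 µM for CPTH2. RPN4 was higher in Curcumin by a log2 fold change of 2.67 ± 0.71 (adjusted p = 0.016), and all its Curcumin libraries exceeded all its CPTH2 libraries. This call was lost without CPTH2 replicate 1 (adjusted p = 0.071) and without CPTH2 replicate 3 (0.064), and the log2 fold change was 1.57 without Curcumin replicate 3. Of the subunit genes 8 were higher in Curcumin and none lower, a share of 24.2% against 26.5% of all tested genes higher and 23.5% lower. They were PUP1, PRE4, PRE8, RPT2, RPN1, RPN2, RPN3 and RPN11, led by RPN1 (2.04 ± 0.29, adjusted p = 0.0018) and PRE4 (1.41 ± 0.23, adjusted p = 0.0029). The count depended on single libraries. It was 18 without Curcumin replicate 3 (27.9% of all tested genes were higher), 3 without Curcumin replicate 2 (20.8%), 2 without CPTH2 replicate 1 or 3 (17.5% and 18.9%) and 4 without CPTH2 replicate 2 (18.3%). Without Curcumin replicate 1, 5 were higher and 4 lower, the latter being PRE3, PUP2, RPN13 and SEM1. RPN1 and PRE4 were called in all 6 of these fits.

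In the scFv-58F strain nearly all subunit genes were slightly higher than in the controls. By the adjusted p alone 28 of 33 passed, all higher, while 23.9% of all tested genes were higher and 25.1% lower by the same rule. With the fold criterion only PRE2 was called, and no subunit was lower (2.0% of all tested genes higher, 5.37% lower). All 33 log2 fold changes were positive, with a median of 0.28 against -0.00 over all tested genes, which is a median fold of 1.22. In 29 genes the groups did not overlap, against 28.3% of all tested genes, and the subunit sums of 8976, 9041 and 9060 CPM lay close together.

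The largest changes were in catalytic genes. PRE2 was at 299.3, 304.3 and 300.9 CPM, well above its 3 control libraries, with a log2 fold change of 0.63 ± 0.05 (adjusted p = 8.4e-06). PRE3 was at 259.6, 248.7 and 257.2 CPM (0.54 ± 0.05, adjusted p = 1.7e-05). PUP1, at 119.3, 98.3 and 105.5 CPM, overlapped the controls (0.04 ± 0.07, adjusted p = 0.68), so that the catalytic genes did not change alike. Next in size were the alpha gene PUP2 (0.51), RPT4 (0.49), RPT6 (0.43) and the ubiquitin receptor gene RPN13 (0.40). Those that missed the threshold were PUP1, RPN2 (0.00), RPN7 (0.13), RPN9 (0.00) and RPN12 (0.16). RPN4, as given before, was at its control level. The mean gene length per read was 1025 to 1049 bp in these libraries, close to the controls.

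The scFv-58F count held with single libraries left out but not with a spread shared over all groups. Leaving out any library kept 26 to 29 of the subunit genes past the adjusted p (18.7% to 23.2% of all tested genes), and 26 of them passed in all 6 fits. In the model of all 5 groups none did, nor did PRE2, and in the model of 4 groups without Curcumin 18 did. By both criteria, a stricter rule, 50 and 128 of all tested genes were higher in these models, against 132 in the main fit. The share higher by the adjusted p alone, 23.9% in the main fit, is not given for these models.

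In the scFv-645 strain PRE2 and PRE3 were also higher, and fewer subunit genes passed the threshold. By the adjusted p alone 11 of 33 were higher and none lower (11.1% and 11.6% of all tested genes), the median log2 fold change was 0.14 against 0.01 over all tested genes, and in 18 the groups did not overlap (21.2% of all tested genes). With the fold criterion PRE2 alone was called (1.4% of all tested genes higher, 2.6% lower), and its fold lay at the limit itself. PRE2 was at 289.6, 295.5 and 290.5 CPM, with a log2 fold change of 0.59 ± 0.08 (adjusted p = 0.00043), and no library overlapped the controls. RPT4, an ATPase of the base, was at 234.1, 216.6 and 213.8 CPM in DMSO and at 282.4, 306.1 and 342.7 in scFv-645 (0.49 ± 0.09, adjusted p = 0.0036). PRE3, at 227.7, 234.5 and 219.4 CPM, was higher by 0.37 ± 0.07 (adjusted p = 0.0049), and PUP1, at 105.5, 105.1 and 102.9 CPM, overlapped the controls (-0.00 ± 0.07, adjusted p = 0.97). The other genes past the adjusted p were PRE1, PRE8, PUP2, RPT1, RPT2, RPT3, RPT6 and RPN10, which makes 5 of the 6 ATPase genes. The mean gene length per read of scFv-645 replicate 3 was 1155 bp, above the 1030 and 1069 bp of the other libraries.

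The scFv-645 count was less stable. It fell to 4 without scFv-645 replicate 2 (5.72% of all tested genes), to 5 without DMSO replicate 1 or DMSO replicate 2 (7.86% and 5.36%) and to 6 in the model of 4 groups, and to 0 in the model of all 5 groups. By both criteria, a stricter rule, 87 of all tested genes were higher in the model of 4 groups and 19 in that of 5. In the main fit 92 were. The share higher by the adjusted p alone, 11.1% in the main fit, is not given for these models. PRE2, PRE3, RPT1 and RPT4 passed in all 6 fits that left out a library.

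A direct comparison of the intrabody strains shares no library with the comparisons of the drugs, and asks what scFv-58F adds to the expression of an unrelated intrabody. No subunit gene was called with the fold criterion (0.744% of all tested genes higher in scFv-58F and 2.06% lower), and 4 were higher by the adjusted p alone (8.44% higher, 12.5% lower): PRE7 (0.22), RPN5 (0.24), RPN8 (0.27) and RPN13 (0.26). The median log2 fold change was 0.12, against -0.01 over all tested genes, and 30 of 33 had a positive sign. PRE2 differed by 0.05 ± 0.07 (adjusted p = 0.65), PRE3 by 0.17 ± 0.07 (0.10), PUP1 by 0.04 ± 0.08 (0.74) and RPN4 by -0.10 ± 0.09 (0.47). The count of 4 became 0 without scFv-58F replicate 1, 2 or 3 or scFv-645 replicate 2, in the models of all 5 and of 4 groups and with library sizes left unadjusted, and 7 without scFv-645 replicate 1 or 3. By both criteria 49 of all tested genes were higher in the main fit. In the models of 5 and of 4 groups and with library sizes unadjusted, 0, 46 and 27 were. The share higher by the adjusted p alone, 8.44% in the main fit, is not given for the other fits.

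The subunit genes were also divided by the PACE element, a property that no expression value had defined. In Curcumin the 27 genes with the exact element had a median log2 fold change of 0.98, and 16 of them rose (28.4% of all tested genes). The 6 without it, PUP1, PRE5, RPN8, RPN10, RPN13 and SEM1, had a median of 0.02, and PUP1 rose. Of these 6, PUP1, PRE5 and RPN8 held the form NGTGGCAAA, RPN10 and SEM1 held GTGGCAA only, and RPN13 held neither. In CPTH2 the medians were 0.44 and 0.19, with 22 of 27 and 2 of 6 past the adjusted p (30.9% of all tested genes were higher). With the length trend removed the medians in Curcumin were 1.14 and 0.36. There 17 of 27 and 2 of 6 were called, PUP1 and RPN10 being the latter (1676 of 6588 tested genes were higher). The medians in CPTH2 were then 0.51 and 0.36, with 25 of 27 and 4 of 6 past the adjusted p. By both criteria 10 of 27 and 1 of 6 were called in that CPTH2 fit (971 of 6588 tested genes were higher). In the intrabody strains the medians were alike, 0.28 and 0.27 in scFv-58F (23 of 27 and 5 of 6 past the adjusted p) and 0.15 and 0.12 in scFv-645 (10 of 27 and 1 of 6). By that rule 23.9% of all tested genes were higher in scFv-58F and 11.1% in scFv-645. The genes without the element include the 2 shortest of the set, so that the element and the length move together here, and their parts in the differences were not tested.

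Genes around the proteasome were counted in 5 lists, to be read against the shares of all tested genes given for each comparison. Of 8 genes for Cdc48, the ATPase that extracts ubiquitinated proteins, its cofactors and the shuttle proteins, all 8 rose in Curcumin, among them UFD1 (log2 fold change 2.38) and RAD23 (1.71), and 4 rose in CPTH2, among them DDI1 (0.97) and CDC48 itself (0.86). Of 14 genes for ubiquitin and its enzymes, 9 rose and 1 fell in Curcumin. UBR1 (2.41), a ligase of the N-degron pathway, and UBR2 (2.20), the ligase that marks Rpn4 for degradation, had the largest changes, and UBC4 (-1.15), a conjugating enzyme, was the gene that fell. In CPTH2 4 rose, among them the polyubiquitin gene UBI4 (0.76) and UBC5 (1.28). Of 6 genes for proteins that bind the proteasome, 3 rose in Curcumin, led by ECM29 (4.06), a tether of core and regulatory particle whose window holds a PACE element, and BLM10 (2.37), an alternative activator, and SPG5 (1.13) rose in CPTH2.

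The assembly chaperones went against the other lists in Curcumin. Of 10 genes 2 rose and 5 fell, with a median log2 fold change of -0.61. Over all tested genes the Curcumin median was -0.44 for lengths above 500 and up to 1000 bp, and 0.62 above 2000 bp. The part of gene length in the differences between the lists was not tested. POC4, a chaperone of the alpha ring, fell by 2.56 and PBA1, which acts at the same step, rose by 1.82. POC4 was also the only gene of this list lower in CPTH2 by both criteria (-1.19), and none was higher by them. By the adjusted p alone 6 of the 10 genes were higher in CPTH2 and 3 lower (30.9% and 33.1% of all tested genes). Their median log2 fold change there was 0.38. No assembly chaperone window held an exact PACE element. Of 4 transcription factors known to act on the RPN4 promoter, 3 rose in Curcumin, with YAP1 at 2.35 and PDR1 at 1.41 and PDR3 at 0.10 (adjusted p = 0.66), and all 4 rose in CPTH2, with PDR3 at 0.88 and HSF1, which overlaps a pair of annotated reading frames that share its reads, at 0.76. In scFv-58F and in scFv-645 no gene of the 5 lists met both criteria. With the adjusted p alone, 6 of 10 assembly chaperones were higher in scFv-58F and 1 in scFv-645 (23.9% and 11.1% of all tested genes). Of the 6 genes for proteins that bind the proteasome, 5 were higher and 1 lower in scFv-58F, and 2 were higher in scFv-645. In scFv-58F the ubiquitin list had 2 higher and 3 lower, the Cdc48 list 3 and 2, and the transcription factors 2 and 1.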

How the data were processed

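RNA from 15 cultures was sequenced as stranded mRNA libraries in a single lane. The authors used cutadapt for trimming, segemehl for mapping to sacCer3 and NGSutils 0.5.9 for counting. The deposited values are raw read counts of 6692 genes, made without strand and with multiply mapped reads shared in part. The authors derived the deposited CPM from these counts and the mapped total of a sample, and the deposited RPKM from the CPM and the length of the gene. The CPM and RPKM columns were used only to check units and lengths.

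The main test was the quasi-likelihood test of edgeR 4.0.16 (R 4.3.3), with TMM normalization over all 15 samples, and DESeq2 1.42.0 served as an alternative. Tables were made with pandas 2.3.3 in Python 3.11.15. A gene was tested if it reached 10 counts in 3 or more samples (6588 genes). Each comparison was fitted on its own 6 samples, with Benjamini-Hochberg adjustment over all tested genes and no covariates. A call needed an adjusted p-value below 0.05 and a fold of 1.5 or more, or the adjusted p-value alone where said. The procedure was also run on simulated counts for the Curcumin and scFv-58F comparisons with DMSO. These counts were drawn independently for each gene and library, without a length trend. The outcome is not given, and no result here rests on it. Normalized CPM are counts scaled to the TMM-adjusted library size.

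Per-sample values are given for RPN4, PRE2, PRE3 and PUP1 and for the 2 members with the largest increase of each comparison with DMSO. The largest 2 changes are given for each related list, and other values, such as those of RPN13, were chosen after they were seen. The members, the lists and the promoter elements were chosen with earlier results of these data known. Promoter windows were cut from the R64 genome of NCBI RefSeq, whose coordinates matched those of the files for all 34 members, and 5978 windows could be cut. For the length trend, the deviation of log2 CPM from the gene's mean over all 15 samples was taken in each library. A lowess curve of this deviation on log2 gene length was used as the offset of that library. The offset thus depends on all groups, Curcumin included. It was added after seeing the data, as was a model of 4 groups without Curcumin.

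The labels number replicates 1 to 3 in each group and do not say what equal numbers share. Deviations from the group means correlated above 0.1 for every number in no comparison, so that the numbers were not taken to pair the samples. The smallest detectable share, taken as 3 counts, was 1.59e-05% to 3.31e-05% of a library, which covers counting error only.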

Additional observations from a re-analysis of the deposited data

How the results depend on the processing

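Of the 17 subunit genes called in Curcumin, 8 were called in all fits that left out 1 library, as were 4 of 5 in CPTH2, PRE2 in scFv-58F and none in scFv-645. Over these fits 8 to 25 subunit genes were called higher and 0 to 1 lower in Curcumin. Of all tested genes 1253 to 2064 were higher there and 1139 to 1891 lower. In CPTH2 4 to 11 subunit genes were higher (818 to 1024 of all tested genes), and in scFv-645 0 to 1 (80 to 114). Between the drugs 2 to 18 were higher and 0 to 4 lower. Of all tested genes 1156 to 1988 were higher there and 1001 to 1807 lower. By the adjusted p alone the subunit counts ranged from 18 to 27 in CPTH2, 26 to 29 in scFv-58F and 4 to 14 in scFv-645. Between the intrabody strains they ranged from 0 to 7, and between the drugs from 2 to 20 higher and 0 to 4 lower. The ranges of all tested genes by this rule are not given here. The median log2 fold change of the subunit genes ranged from 0.62 to 1.10 in Curcumin, 0.29 to 0.47 in CPTH2, 0.13 to 0.17 in scFv-645 and 0.28 to 0.84 between the drugs. RPN4 ranged from 3.12 to 4.66 in Curcumin, 1.33 to 1.68 in CPTH2, -0.048 to 0.049 in scFv-58F, 0.01 to 0.18 in scFv-645 and 1.57 to 3.11 between the drugs. PRE3 ranged from -0.70 to 0.31 in Curcumin, PUP1 from -0.042 to 0.10 in scFv-58F, -0.038 to 0.020 in scFv-645 and -0.037 to 0.11 between the intrabody strains.

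With library sizes left unadjusted, the median of all tested genes moved from 0.04 to 0.38 in Curcumin, and the genes called from 1874 higher and 1591 lower to 2521 and 1052. In that setting PRE3 was at 0.23 in Curcumin. Between the drugs 15 subunit genes were called (15 by the adjusted p alone), and 2401 of all tested genes were higher and 1007 lower. No subunit gene was called in scFv-58F, where 90 of all tested genes were higher and 465 lower. The subunit median there was 0.22, with RPN4 at -0.061 and PUP1 at -0.024. PUP1 was at 0.0016 in scFv-645. Between the intrabody strains no subunit gene passed the adjusted p, while 27 of all tested genes were higher and 205 lower by both criteria. The subunit median was 0.047, and PUP1 and PRE2 were at -0.026 and -0.023. With the length trend removed PRE3 was at 0.39 in Curcumin and PUP1 at 0.019 in scFv-645. In CPTH2 11 subunit genes were called (971 of all tested genes were higher). Between the intrabody strains 9 subunit genes passed the adjusted p, and 32 of all tested genes were higher and 113 lower by both criteria. The share past the adjusted p alone is not given for that fit.

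In the model of all 5 groups, whose shared spread includes Curcumin, 7 subunit genes passed the adjusted p in CPTH2, 0 in either intrabody strain or between them (and 0 were called), and 15 were called between the drugs (16 by the adjusted p). The calls over all tested genes changed as well, from 132 to 50 higher in scFv-58F and from 92 to 19 in scFv-645. Between the intrabody strains they went from 49 to 0 higher, between the drugs from 1748 to 2069, and in CPTH2 from 928 to 829. The model of 4 groups gave 18, 6 and 0 past the adjusted p in scFv-58F, in scFv-645 and between these strains. By both criteria 128, 87 and 46 of all tested genes were higher there. The shares of all tested genes past the adjusted p alone are not given for these models. PRE2 was not called in scFv-645 (0 called) by DESeq2's test or size factors, nor with at least 10 counts in every sample, where RPN4 was at -0.0024 in scFv-58F. With the replicate number as a block, which no source says pairs the samples, the subunit genes past the adjusted p were 6 in scFv-645, 0 between the intrabody strains and 5 between the drugs (5 called). Of all tested genes 89, 47 and 1619 were higher by both criteria in these comparisons, and the shares past the adjusted p alone are not given. The block changed no other count by more than 1.5 times. Depth does not limit these genes, whose lowest count was 422.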
